A study of Gorilla gorilla with 12 samples.

Results

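Interferon-stimulated genes are described here by 9 of their number: IFIT1, IFIT3, MX1, MX2, ISG15, OAS1, IRF1, IFI27 and IFI35. They were chosen by name, and every probe set whose annotation gave 1 symbol, one of these 9, was taken. This gave 13 of the 12625 probe sets, and 9 of the 8229 gene symbols. Expression was measured in cultured fibroblasts, connective tissue cells, of gorillas, with 1 array per culture. The array at 50% confluence held male line 2, from a donor of 26 years, harvested when cells covered only part of the dish, and all other cultures were harvested under standard conditions. The 5 standard male lines came from donors of 19, 26, 24, 18 and 3 years, numbered male 1 to 5. The 6 standard lines with a female label, numbered female 1 to 6, had donors aged 19, 19, 35, 26, 30 and 2 years. The labels call all donors normal and name no interferon, virus or other treatment, so the values describe untreated cultures. Each standard line has a name of its own in the labels, and the numbers used here only name lines and pair nothing.

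Interferons are secreted proteins that cells release when they sense viral nucleic acid. They bind receptors on the same or neighbouring cells, receptor-bound kinases then activate transcription factors, and these switch on a large set of antiviral genes. Fibroblasts both make and answer interferon, and without it most of these genes are transcribed at a low level. Among the 9 genes, IFIT1 and IFIT3 code for proteins that bind foreign RNA and its sensors, MX1 and MX2 for GTPases that trap viral particles, and OAS1 for an enzyme whose product activates the RNA-cleaving enzyme RNase L. ISG15 is a ubiquitin-like protein that is attached to other proteins, IRF1 is a transcription factor of the pathway, and IFI27 and IFI35 are less well understood products of interferon-induced genes. In the gorilla gene table, MX2 and MX1 were neighbours, and IFIT3 and IFIT1 stood in a run of IFIT genes. IFI27 was not found there under that symbol.

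The deposited intensities were whole numbers with a floor of 100, and 40.1% to 49.2% of probe sets on an array stood at it. Such a value bounds the level from above and no more. In whole cultures like these, fewer expressing cells and less RNA per cell cannot be told apart. The probes were designed on human sequence, so a base difference in gorilla can lower an intensity, and no gene is set against another by level. Probe sets with _s_ in their name, here 4 of the 13, can match more than 1 transcript. All 13 fibroblast markers with a probe set were above the floor on every array. Of 11 leukocyte markers, 5 were at the floor on all 12 arrays, among them PTPRC, while CD68 and CD3E were above it on every array and CD14 reached 1673. The line labelled female 3 had an intensity of 2595 for the Y-linked gene RPS4Y1, against 2662 to 4363 in the standard male lines and 100 to 115 in the other lines labelled female. It goes against its label, so it is called "the line labelled female 3". Results for the interferon-stimulated genes described here are given with and without it where it matters.

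Of the 9 genes, 4 were at or near the floor on most arrays: IFI27, OAS1, MX1 and IFIT1. Of these IFIT1 reached the highest value, 185 on 915_at. The IFI27 probe set (425_at) and an OAS1 probe set (38389_at) stood at 100 on all 12 arrays, and the other OAS1 probe set (38388_at) had 101 in male 2 and 100 elsewhere. Of all probe sets other than controls, 19.5% were likewise at the floor on all 12 arrays, so 2 of 13 is no more than the arrays show in general. MX1 (37014_at) had 122, 133, 100, 100 and 100 in male lines 1 to 5, and 100 in all lines labelled female and in the culture at 50% confluence. Only males 1 and 2 stood above the floor, by little.

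IFIT1 was read by 2 probe sets, and they did not pick out the same lines. On 32814_at it had 152, 100, 100, 102 and 103 in males 1 to 5, while the line labelled female 3 had 145 and the other females 100. On 915_at it had 100, 150, 100, 100 and 100 in males 1 to 5, and 185, 100, 108, 117, 100 and 106 in females 1 to 6. The highest male line and the highest line labelled female differed between the probe sets. Both were at 100 in the culture at 50% confluence. None of these 6 probe sets passed the filter on mean level described under processing, which 60% of probe sets passed, so they were not tested.

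**Figure D1:**
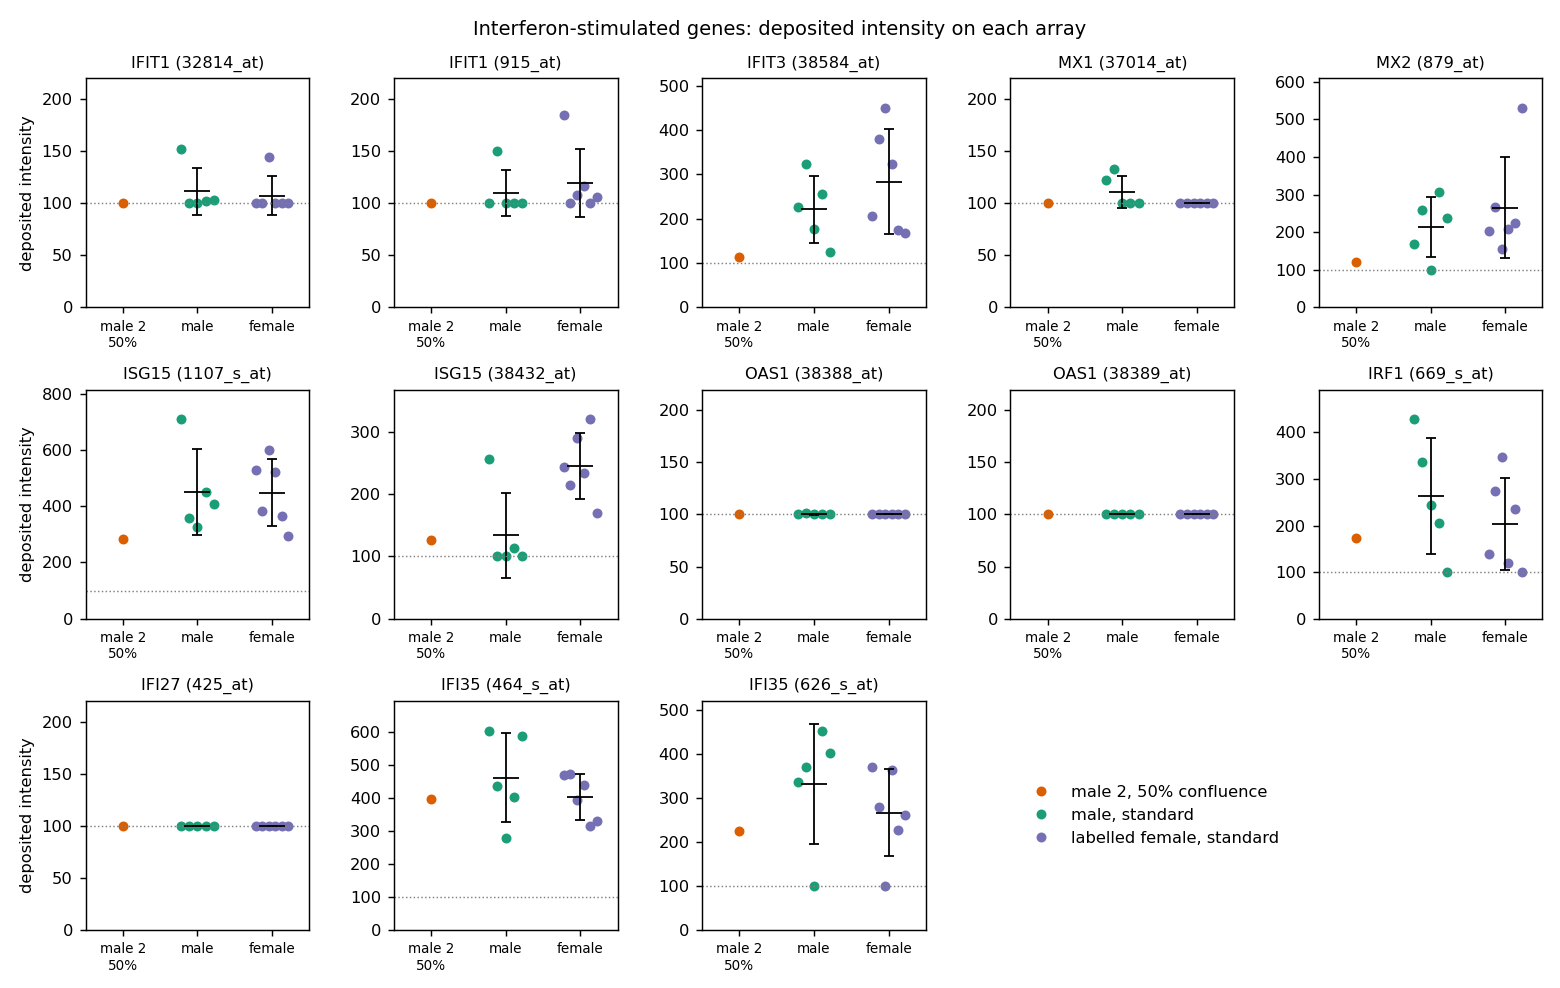
Deposited intensity (vertical axis, arbitrary units) of the 13 probe sets in male line 2 at 50% confluence, the 5 standard male lines and the 6 standard lines labelled female. Points are arrays, bars are mean and SD, and the dotted line is the floor of 100, at or near which IFI27, OAS1, MX1 and most IFIT1 values lie.

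The signals that turn these genes on were near the floor too. Of 17 interferon genes listed, 12 had a probe set, and none of the 12 passed the filter. IFNB1, IFNA4 and IFNA5 were at 100 on all 12 arrays, and the highest value of any was 174, for IFNW1. Of 47 further interferon-stimulated genes, 38 had a probe set and 24 passed the filter. RSAD2, CXCL11, XAF1, SP110, SAMHD1, TNFSF10 and CIITA stood at 100 on all 12 arrays. That is 7 of 38, where 19.5% of all probe sets other than controls did so, and 60% of these passed the filter. These shares count single probe sets, while each listed gene is counted by its tested probe set with the highest mean. The counts are thus not like for like, and no likeness or excess is read from them. All 14 receptor and signalling genes with a probe set, counted in the same way, passed the filter, but some of them were often at the floor. IRF8 was at it on 9 of the 12 arrays, the interferon receptor chain IFNAR2 on 7, IRF7 on 7 and the kinase JAK2 on 4. The kinase JAK1 had 1973 to 3453 in standard male lines and 2254 to 3689 in lines labelled female. IRF9, the DNA-binding part of the factor that interferon activates, had 321 to 868 in standard male lines and 371 to 862 in lines labelled female.

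The other 5 genes, IFIT3, MX2, ISG15, IRF1 and IFI35, had 7 probe sets that passed the filter. IFIT3 (38584_at) had 226, 323, 177, 255 and 126 in males 1 to 5, against a lowest, median and highest value of 169, 264.5 and 449 in the lines labelled female. The ranges overlapped, male 5 was lowest, and the line labelled female 3 was highest. MX2 (879_at) had 169, 258, 100, 306 and 237 in males 1 to 5, against 155, 216.5 and 529 as the lowest, median and highest value in the lines labelled female. Female 6, from the donor of 2 years, stood above all other lines, and male 3 was at the floor.

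ISG15 on 1107_s_at had 710, 358, 327, 452 and 410 in males 1 to 5, against 295, 454 and 600 as the lowest, median and highest in the lines labelled female. Male 1 was highest and female 6 lowest, and the ranges overlapped. On the other ISG15 probe set, 38432_at, males 1 to 5 had 256, 100, 100, 113 and 100, against 170, 238.5 and 320 as the lowest, median and highest in the lines labelled female. Here 4 of the 5 male lines were below every line labelled female, and male 1 was among the females. The probe sets thus agreed only in part on the order of the lines, with Pearson's r = 0.541 and Spearman's rho = 0.55 between them over the 11 lines.

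IRF1 (669_s_at) had 428, 337, 245, 206 and 100 in males 1 to 5, against 100, 187.5 and 348 as the lowest, median and highest in the lines labelled female. Its values at the floor were those of male 5 and female 6, from the donors of 3 and 2 years. IFI35 on 464_s_at had 605, 437, 279, 403 and 588 in males 1 to 5, against 314, 417.5 and 472 as the lowest, median and highest in the lines labelled female. On 626_s_at IFI35 had 336, 370, 100, 454 and 402 in males 1 to 5, against 100, 270.5 and 370 in the lines labelled female. Male 3 was lowest on both IFI35 probe sets. On 626_s_at it was at the floor together with the line labelled female 3, which was not low on 464_s_at (394).

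The 7 probe sets differed in how far they ranged over the 11 standard lines. After quantile normalization, the highest line was 4-fold or more above the lowest for MX2, IRF1 and IFI35 on 626_s_at, which is 3 of 7, while 12.5% of all tested probe sets ranged as far. Since each reached the floor, the deposited values give lower limits: at least 5.29-fold for MX2, 4.28-fold for IRF1 and 4.54-fold for IFI35. For MX2 male 3 alone was at the floor, and the fold over the second-lowest line was 3.41. The SD on the log2 scale was 0.76 for IRF1 and 0.76 for IFI35 on 626_s_at, at percentiles 93.7 and 93.6 of all tested probe sets. It was 0.42 for ISG15 on 1107_s_at and 0.34 for IFI35 on 464_s_at, at percentiles 53.2 and 32.4. Male 3, the lowest line for MX2 and IFI35, was also the standard array with the most probe sets at the floor, 48.8%, and the part of this in its low values was not tested.

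The lines labelled male and female were compared to ask whether expression differed by sex. None of the 7 probe sets was called by limma, a linear model with moderated variances, after Benjamini-Hochberg adjustment over all 7541 tested probe sets, and 0% of these were called. The Y-linked RPS4Y1 was thus not called either, with the line labelled female 3, at 2595, counted as female. The lack of calls by label therefore says little about sex. At an unadjusted p under 0.05 there was 1 of 7, lower in males, against 5.26% of all tested and 2.59% lower in males. It was ISG15 on 38432_at, with a male minus female difference of -0.95 on the log2 scale (SE 0.28, adjusted p = 0.804). Its mean intensity was 134 ± 68.5 in male lines (SD, n = 5) and 245 ± 53.5 in lines labelled female (SD, n = 6), and 3 of the 5 male values were limits at the floor. For this single probe set the two-sided exact permutation test over all splits of the 11 lines gave p = 0.0216. The smallest value possible is 0.00216. This probe set was picked out of the 7 by its limma p, and the exact p is not adjusted for that choice. For the other tested probe sets the two-sided exact permutation test gave p = 0.407 to 0.978. The line labelled female 3 was counted as female, and no exact p without it is given, so the comparison is one by label. The other ISG15 probe set, 1107_s_at, had 451 ± 152 in male lines (SD, n = 5) and 449 ± 118 in lines labelled female (SD, n = 6), a log2 difference of -0.0064. Without male 1 the difference on 38432_at was -1.24, with a limma adjusted p of 0.172, and leaving out the line labelled female 3 gave -0.89.

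The other members differed between the sexes by less than the spread between lines. Male minus female log2 differences were -0.30 for IFIT3 (SE 0.32), -0.33 for MX2 (SE 0.32) and 0.37 for IRF1 (SE 0.39). Single lines moved these values: IFIT3 had -0.14 without the line labelled female 3 and -0.10 without male 5, and MX2 had -0.087 without male 3. IRF1 had 0.135 without male 1 and 0.67 without male 5. The differences of IFI35 were 0.16 and 0.26 on its probe sets. Without the line labelled female 3, the second of these was 0.0041. Over all 11 lines the adjusted p of these 5 lay between 0.905 and 0.949 in limma.

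The leukocyte marker LAT, an adaptor of the T cell receptor, had 100 to 194 in male lines and 192 to 502 in lines labelled female, a log2 difference of -1.52 (limma adjusted p = 0.0968). That is the direction of ISG15 on 38432_at, and its part in that difference was not tested. No LAT difference without the line labelled female 3 is given, so the LAT difference is one by label. Of the 6 leukocyte markers tested, 3 were higher in males on average.

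No gene of the pathway lists was called for sex. Of the 24 further interferon-stimulated genes tested, 6 were higher in males on average, and the median log2 difference was -0.097, while over all tested probe sets 3680 of 7541 were higher, with a median of -0.0088. The gene with the smallest p among the lists of the pathway was MYD88, an adaptor of Toll-like receptors that sense microbes. Its lines did not overlap by label: it had 100 to 247 in male lines and 288 to 493 in lines labelled female. The latter include the line labelled female 3, whose Y-linked signal goes against its label, so this is not a split by sex. All male lines were below all lines labelled female in 0.159% of tested probe sets, 12 in number. The log2 difference of MYD88 was -0.94 (SE 0.26, limma adjusted p = 0.725). IFI16, a DNA sensor, stood the other way, with 381 ± 73.9 in male lines (SD, n = 5) and 262 ± 50.3 in lines labelled female (SD, n = 6), a log2 difference of 0.55 (limma adjusted p = 0.89). MYD88 and IFI16 were singled out after their values were seen, and no difference without the line labelled female 3 is given for them.

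Donor age was set against expression with sex as a covariate. None of the 7 probe sets was called by limma, and 0% of the 7541 tested were. At an unadjusted p under 0.05 there were 3 of 7, while 5.44% of all tested probe sets reached it, 2.52% with a positive and 2.92% with a negative slope. Per 10 years of age, IRF1 gained 0.55 on the log2 scale (SE 0.15, adjusted p = 0.826) and IFIT3 0.38 (SE 0.14, adjusted p = 0.85). MX2 ran the other way at -0.38 (SE 0.14, adjusted p = 0.85). The fitted slopes of the 7 were thus mixed in sign, 4 positive and 3 negative.

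The donors under 10 years stood apart for some members. IRF1 had 100 in both donors under 10 years, against 119, 245 and 428 as the lowest, median and highest of the 9 adults. IFIT3 had 126 and 169 in the young donors, against 174, 255 and 449 in the adults. Both young donors were below all adults for these 2 of the 7 probe sets, as they were for 1.64% of all tested, a pattern noticed in the data. Counting either side, below or above, it held for the same 2 of 7 and for 5.2% of all tested. MX2 had 237 and 529 in the young donors, against 100, 209 and 306 in the adults. Among adults alone the slopes were 0.44 for IRF1, 0.21 for IFIT3 and -0.33 for MX2, each with a limma adjusted p of 1. IFI35 on 626_s_at had -0.94 in these adults, also with a limma adjusted p of 1. MX2 had a slope of -0.23 without female 6, and without the line labelled female 3, the oldest donor, IRF1 had 0.503, IFIT3 0.32 and MX2 -0.35. Adults minus young donors, an alternative added after seeing the data, gave log2 differences of 1.29 for IRF1 and 0.95 for IFIT3 (limma adjusted p = 0.48 and 0.567). Since both young IRF1 values were at the floor, its difference is a lower limit, and its age slope rests on such limits too.

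The ratios that describe RNA quality ran opposite ways over donor age. For ACTB, the 3' to 5' ratio, which rises as RNA breaks down, was 0.84 in female 6 and 0.672 in male 5, the youngest donors and the lowest of the standard arrays, and 1.188 in the line labelled female 3. That of GAPDH was 1.285 and 1.304 in the young donors and 0.869 in that line, so they give no single direction for RNA quality. The part of RNA quality in the slopes was not tested.

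**Figure D2:**
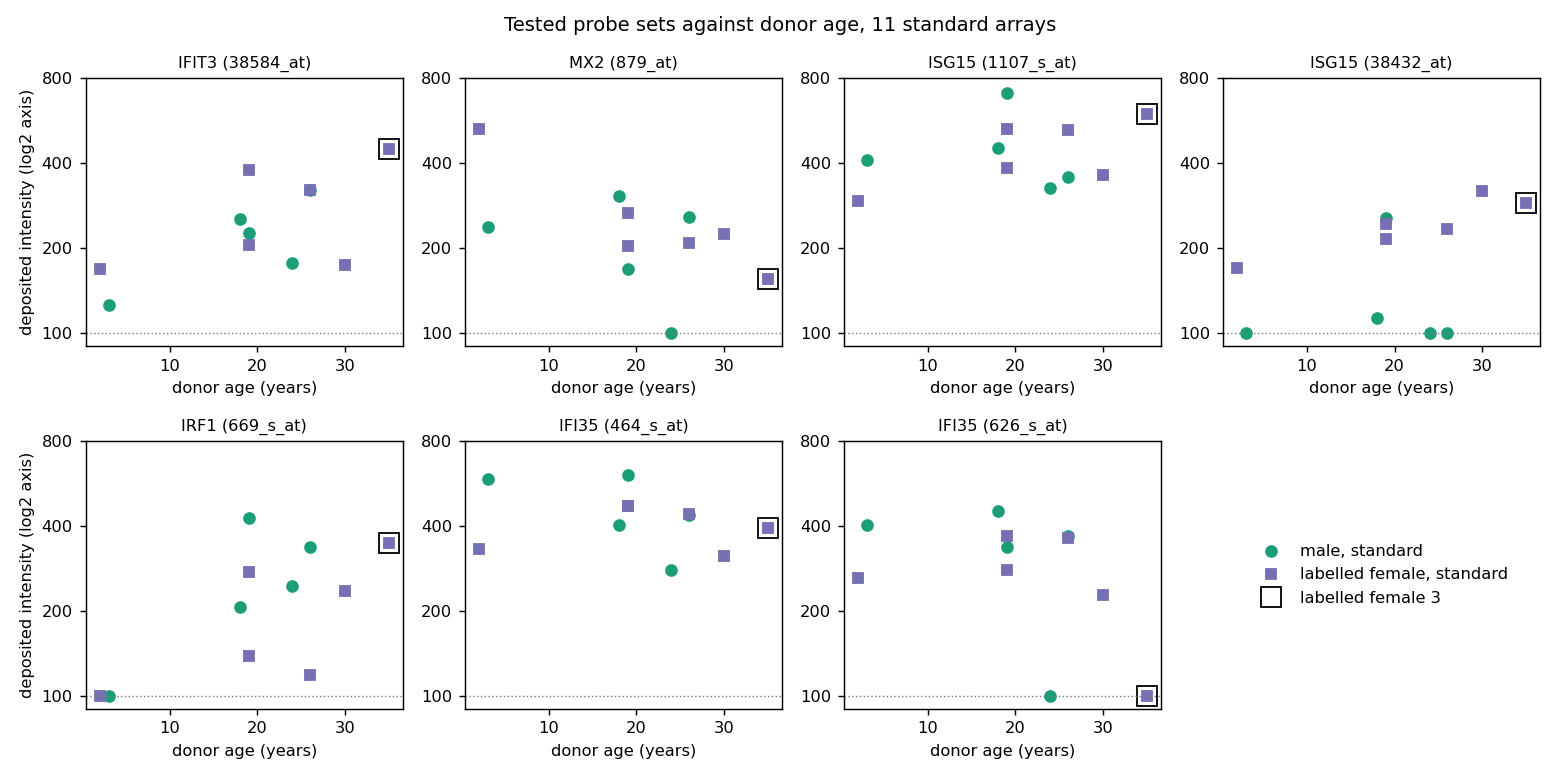
Deposited intensity (log2 axis) against donor age in years for the 7 tested probe sets, with male lines as circles and lines labelled female as squares, and the line labelled female 3 boxed. The dotted line is the floor of 100, where IRF1 lies in the donors of 2 and 3 years.

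The remaining slopes were 0.16 and 0.22 for the ISG15 probe sets 1107_s_at and 38432_at, and -0.053 and -0.31 for the IFI35 probe sets 464_s_at and 626_s_at (limma adjusted p = 0.936 to 0.975). The IFI35 slope on 626_s_at was -0.13 without the line labelled female 3 and -0.59 without female 6, and the ISG15 slope on 1107_s_at was 0.0065 without female 6. The difference of the age slope between the sexes was tested too, and 0 of the 7 members and 0% of all probe sets were called, with 0 of 7 and 3.74% at an unadjusted p under 0.05. Among the other genes of the pathway, 0 were called for age. Of the 24 further interferon-stimulated genes 13 had a positive slope, with a median of 0.033, against 3730 of 7541 and -0.0017 over all tested. IL6, an inflammatory cytokine, had the smallest p of the lists, with a slope of 1.54 (limma adjusted p = 0.401). It had 125 to 1752 in male lines and 211 to 14499 in lines labelled female, the highest in the line labelled female 3.

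The culture of male line 2 at 50% confluence was set beside its own standard culture, to ask how the density at harvest bears on expression. With 1 array per condition there is no replicate check and no test. IFIT3 was 114 at 50% confluence, against 323 in the standard culture, and 2.23-fold lower after normalization. MX2 was 122 against 258, IRF1 173 against 337, and IFI35 on 626_s_at 226 against 370, in the same order of cultures. Each of these was lower at 50% confluence, with log2 differences of -0.72, -0.69 and -0.50. ISG15 on 1107_s_at had 283 at 50% confluence and 358 in the standard culture, and IFI35 on 464_s_at had 398 and 437. ISG15 on 38432_at had 127 at 50% confluence and was at the floor of 100 in the standard culture, at least 1.27-fold higher as deposited.

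Thus 6 of the 7 probe sets were lower at 50% confluence, where 46.3% of all tested were, and the median difference was -0.50 against 0 over all tested. In these shares, probe sets at the floor in both cultures count as not lower. As deposited 6 of 7 were lower too, against 52.7% of all tested. IFIT3 was the 1 member past 2-fold, and 7.24% of all tested were lower by 2-fold or more. None of the 7 was higher by 2-fold, where 6.96% of all tested were. After normalization none of the 7 lay below the range of the 11 standard lines, while 4.76% of all tested did. As deposited, IFIT3 and ISG15 on 1107_s_at lay below it, where 6.18% of all tested did.

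Signal differed between these arrays beside the members. The array at 50% confluence had the most probe sets at the floor, 49.2%, and the standard array of male 2 the fewest, 40.1%. The order of the median intensities was the same, 105 at 50% confluence and 148 in the standard culture. With median scaling of the arrays 4 of the 7 were lower, and 3 higher: ISG15 on 1107_s_at had a difference of 0.16, IFI35 on 464_s_at one of 0.36 and ISG15 on 38432_at one of 0.84. IFIT3, MX2, IRF1 and IFI35 on 626_s_at were lower under quantile, median and no scaling, with differences from -0.22 to -1.503 on the log2 scale. Summed deposited intensities of markers differed as well: 82568 at 50% confluence and 123514 in the standard culture for the 13 fibroblast markers, and 1696 and 2293 for the 11 leukocyte markers. After normalization the median log2 difference of the fibroblast markers was -0.0085, against -0.30 as deposited. In the standard lines the leukocyte sums were 1493 to 3228 in males and 2016 to 3651 in the lines labelled female. The part of array signal and of other cell types in these differences was not tested.

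**Figure D3:**
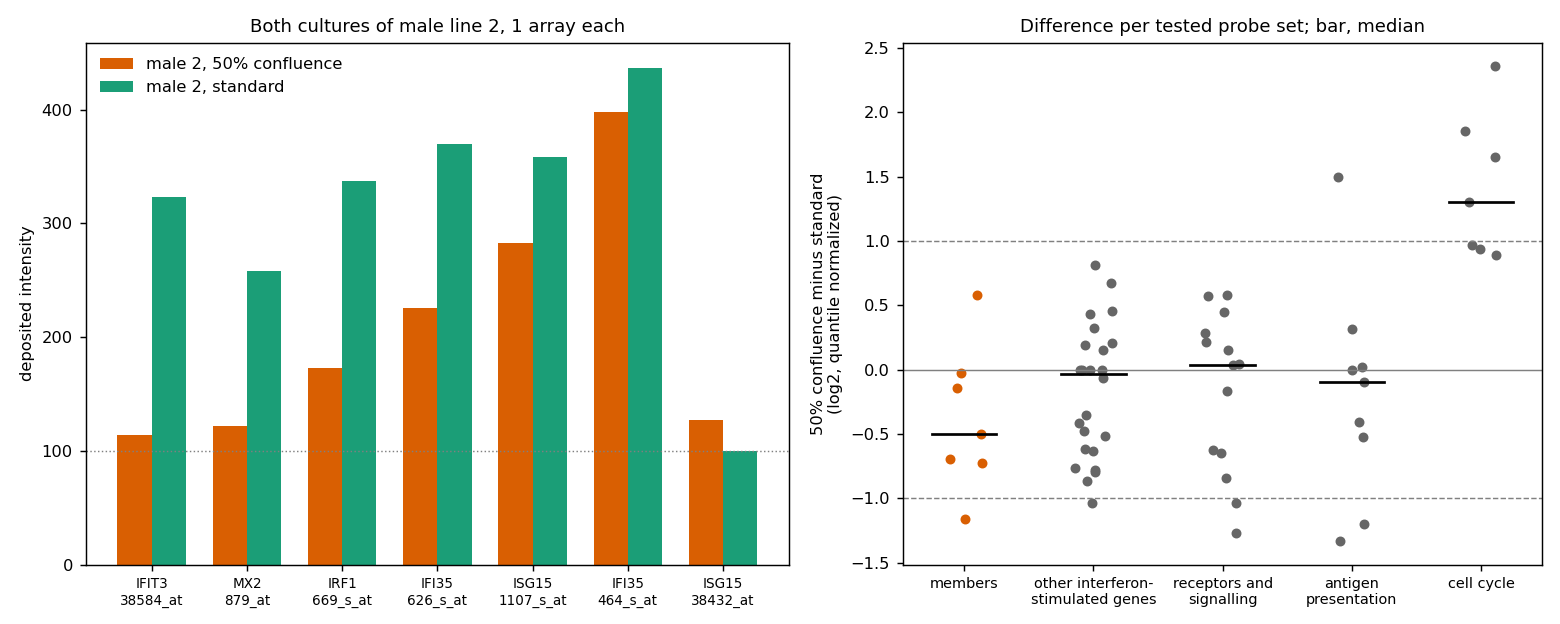
Left, deposited intensity of the 7 tested probe sets in male line 2 at 50% confluence and in its standard culture, 1 array each, with the floor of 100 dotted. Right, the log2 difference of each tested probe set, 50% confluence minus standard, for the members and 4 lists of other genes. Bars mark medians and dashed lines a 2-fold difference, and IFIT3 is the member past it.

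Of 24 other interferon-stimulated genes tested, 12 were lower at 50% confluence, where 46.3% of all tested probe sets were, and their median was -0.033. As deposited 14 were lower, against 52.7% of all tested. IFIT2, GBP1, LGALS3BP and IDO1 were at the floor of 100 in both cultures. They count as not lower, though a difference below the floor could not be seen. Past 2-fold was 1 gene. This was OAS2, a relative of OAS1, 2.05-fold lower after normalization. As deposited it was at the floor of 100 at 50% confluence, which is a limit, against 228 in the standard culture. OAS2 was below the range of the standard lines, as were IFITM1, IFITM3, LY6E and SP100, which makes 5 of 24. IFITM1, a membrane protein that blocks viral entry, had 215 at 50% confluence and 444 in the standard culture. IFITM3, its close relative, had 8319 and 11484, LY6E 770 and 1224, and the nuclear body protein SP100 309 and 365, in the same order. For 4 of these 5 the difference was under 2-fold after normalization.

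Of 14 receptor and signalling genes 6 were lower, with a median of 0.038, among them IRF2, a repressor of the pathway, at 205 against 477 in the standard culture (2.05-fold lower). IRF8 was at the floor of 100 at 50% confluence, against 261 in the standard culture. TRIM21, MYD88 and TICAM1, an antibody receptor in the cytosol and a pair of Toll-like receptor adaptors, stood 2-fold or more higher at 50% confluence after normalization, with log2 differences of 1.60, 1.05 and 1.30. As deposited they had 308, 263 and 292 there, against 124, 160 and 150 in the standard culture. In antigen presentation, HLA-E and HLA-F, which share sequence with other class I genes, were past 2-fold lower and the immunoproteasome subunit PSMB8 past 2-fold higher, with 362 at 50% confluence and 156 in the standard culture. Of the inflammatory genes, CCL2 was at the floor of 100 against 230, and IL1B was 307 against 135 in the standard culture. All 7 cell cycle genes were higher at 50% confluence, with a median of 1.30, among them CCNB2 at 848 against 182. Their part in the values of the members was not tested.

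Whether the members went up and down together over lines was described by correlation over the 11 standard lines, with 1 array each. Of 21 pairs of probe sets 13 correlated positively and 8 negatively, with a median Pearson's r of 0.101 and a range from -0.501 to 0.642. The highest value joined ISG15 on 1107_s_at with IFI35 on 464_s_at (r = 0.642, rho = 0.588), and next came IRF1 with IFIT3 (r = 0.581, rho = 0.661). Without the pair of lines farthest from the IFIT3 median, the last r was 0.329. The IFI35 probe sets had r = 0.569 and the ISG15 probe sets r = 0.541. MX2 stood apart from most others, with r = -0.501 to IRF1 and -0.434 to ISG15 on 1107_s_at, but 0.526 to IFI35 on 626_s_at.

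**Figure D4:**
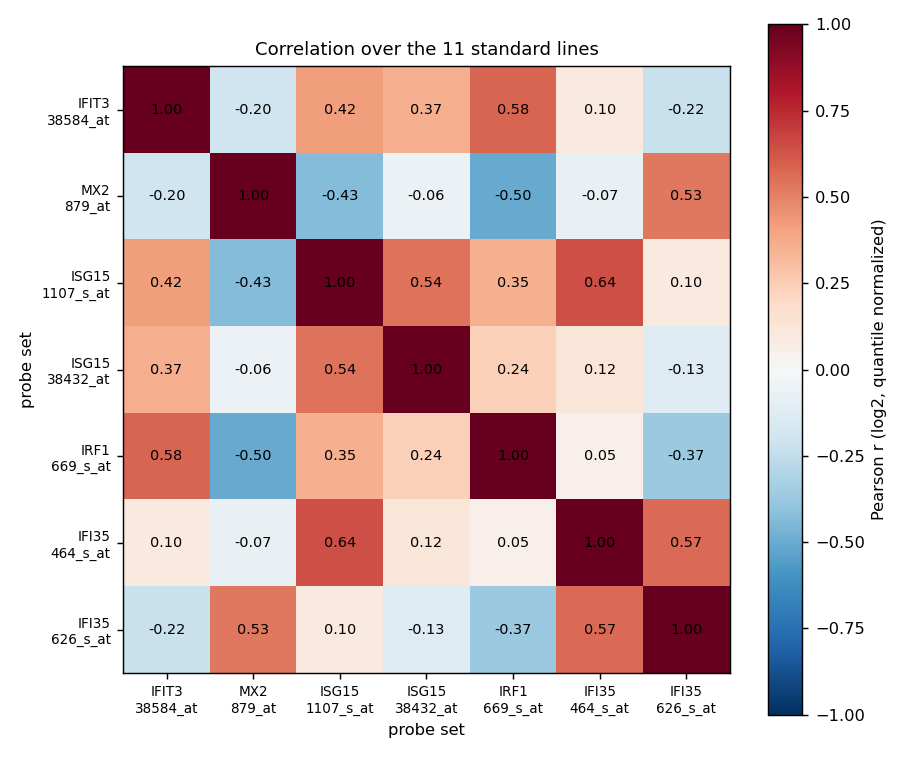
Pearson's r between the 7 tested probe sets over the 11 standard lines, on quantile-normalized log2 intensities, each cell being 1 pair. Positive and negative values are mixed, from -0.50 for MX2 with IRF1 to 0.64 for ISG15 with IFI35.

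IRF1, the tested member with the largest SD, was used as a yardstick for every other probe set. limma called 0 of the 6 other member probe sets and 0% of all for a slope on the IRF1 level. IFIT3 came nearest, at 0.45 log2 units per log2 unit of IRF1 (SE 0.19, adjusted p = 0.669), the 1 of 6 with an unadjusted p under 0.05, as 7.18% of all tested probe sets had. MX2 had a slope of -0.39 (SE 0.203, adjusted p = 0.726). Without the lines farthest from the IRF1 median, female 6 and male 5, the slope of IFIT3 was 0.18.

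Genes with the most similar pattern were looked up among 5136 candidates that were rarely at the floor, as a description over 11 lines. IFIT3 was most like CBX7, a Polycomb protein (r = 0.927), NFE2L1 (r = 0.90), BAX, WBP2 and PSMB10. PSMB10, an immunoproteasome subunit that interferon induces (r = 0.871), was the 1 gene of the pathway lists among the nearest 5 of any member. MX2 was most like KBTBD11 (r = 0.916), ISG15 on 1107_s_at like SHC1, a signalling adaptor (r = 0.899), and on 38432_at like DPF2 (r = 0.852). IRF1 was most like PGD, an enzyme of the pentose phosphate pathway (r = 0.853), and IFI35 like NUMA1 on 464_s_at (r = 0.855) and ATXN10 on 626_s_at (r = 0.895). No gene was among the nearest 5 of more than 1 member probe set. With IL6, named after the values were seen, IRF1 had r = 0.51 over the same lines, below its r of 0.584 with TYK2 and 0.527 with IFNAR2. IFIT3 had r = 0.477 with IL6, and the ISG15 probe sets 0.39 and 0.402. MX2 had r = -0.442 with IL6, and IFI35 -0.363 on 464_s_at and -0.538 on 626_s_at. IL6 thus had no common direction over the members.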

How the data were processed

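The deposited values are intensities, 1 whole number per probe set and array, from 12 arrays. The software, scaling and floor by which the authors made them were not given in the sources used here, and the lowest value is 100 on every array. Values of 12625 probe sets were taken to log2 and quantile normalized over the 12 arrays. The 67 control probe sets were left out of tests. Probe sets whose mean log2 value over the 11 standard arrays exceeded the 40th percentile were tested, 7541 in all. Differences between the sexes, age slopes, their interaction and slopes on IRF1 were fitted by lmFit and eBayes of limma 3.58.1, run under R 4.3.3, adjusting by Benjamini-Hochberg over all tested probe sets and a threshold of 0.05. Intensities are printed as deposited, while differences, slopes, SDs and correlations are from normalized log2 values. Gene names came from the platform's annotation, and each listed gene was represented by its tested probe set with the highest mean. Of 133 other pathway genes listed, 104 had a probe set and 73 were tested. All member probe sets are described. Other genes named were, by rule, those past the threshold or 2-fold, the 4 largest differences of a list, or the 5 genes nearest to a member by Pearson's r, and any beyond these were named after their values were seen. The members and lists were chosen with earlier results of these data known. The number of arrays limits the precision, and p-values measure the spread between lines. The fits were tested on simulated arrays with known changes. No genome or sequence table was used.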

Additional observations from a re-analysis of the deposited data

Results flagged for a closer look

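In a group of 5 or 6 lines, the highest or lowest line was set against its distance from the others (Dixon's ratio), over 20 combinations of group and probe set. For normally distributed values without a floor, chance marks about 1 in 20, and here 8 were marked. All 8 groups hold values at the floor of 100, where that rate does not apply, so no excess can be read from the count. In 3 of the marked groups all other lines sat at the floor, and in 2 the marked line itself was at the floor. IFIT1 on 32814_at had 152 in male 1 and 145 in the line labelled female 3. On 915_at it had 150 in male 2 and 185 in female 1. OAS1 on 38388_at had 101 in male 2, which is 1 unit above the floor. ISG15 on 38432_at had 256 in male 1. IFI35 on 626_s_at was at 100 in male 3 and at 100 in the line labelled female 3. No member had an age slope that differed between the sexes past the threshold.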

How the results depend on the processing

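The counts of members called for sex, age, their interaction and the slope on IRF1 were 0 under every alternative tried for each: 20 for sex, 21 for age, 16 for the interaction and 20 for the slope on IRF1. Members past 2-fold at 50% confluence numbered 1, with 2 on values as deposited, 0 with a floor of 200 and 3 at 1.5-fold. Probe sets ranging 4-fold or more numbered 3, with 0 at a floor of 200 and 5 at 3-fold; with 1 line left out they numbered 2 or 3. The floor of 200 lies above many of these values, so it removes differences by construction. With it, the age slopes were 0.20 for IRF1, 0.21 for IFIT3 and -0.27 for MX2. The sex difference of ISG15 on 1107_s_at was 0.0055 with array weights and 0.055 with age as a covariate, and ran from -0.19 to 0.091 with 1 line left out. That of IFI35 on 464_s_at was -0.0019 among donors of 10 years or more. The age slope of IFI35 on 464_s_at was 0.016 with array weights, and -0.26 to 0.024 with 1 line left out. That of ISG15 on 1107_s_at was -0.074 in adults. The slope on IRF1 was 0.066 for MX2 with sex and age as covariates. It was -0.0071 for ISG15 on 38432_at without female 6 and male 5, and for IFI35 on 464_s_at it ran from -0.12 to 0.15 with 1 line left out. The cause of these changes was not tested. Apart from the cultures of male line 2, nothing could be paired, since every other line had 1 array. Values at the floor limit what can be said of IFI27, OAS1, MX1 and IFIT1.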
